A study of Rattus norvegicus with 6 samples.

Results

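The miR-29 family was followed in the small RNA sequencing of rat primary sertoli cells cultured with or without 4-nonylphenol (4-NP), an alkylphenol with estrogen-like action. Members were all mature miRNA rows of the count table whose name, without the final 3p or 5p, was rno-miR-29a, rno-miR-29b or rno-miR-29c. This gave 6 of the 734 mature miRNA rows, a 3p and a 5p product for each of the 3 names. There were 3 control samples (0 mM 4-NP) and 3 samples treated with 0.5 mM 4-NP, all collected at 24 h. The cells of both groups came from the testes of Sprague-Dawley rats of 5 to 10 days of age, were grown with fetal bovine serum and were treated at passage 2 (P2). The labels do not say whether the replicates are separate cultures, so each p-value measures only the spread between these samples.

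The members of the miR-29 family are made from paired miRNA genes, and a processed hairpin gives a 5p and a 3p product. The 3p product is usually the guide strand, which loads into Argonaute and pairs through its seed, bases 2 to 8, with target mRNAs. The family is best known for repression of collagens and other extracellular matrix genes, of the de novo DNA methyltransferases and of the survival factor Mcl1. Sertoli cells help to build the basement membrane of the seminiferous tubule, which holds type IV collagen.

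The 6 mature sequences, from RefSeq annotation of the GRCr8 assembly, are shown because the 3p products share a seed while the 5p products do not. Capitals mark the seed.
miR-29a-3p: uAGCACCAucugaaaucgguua
miR-29b-3p: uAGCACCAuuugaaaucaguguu
miR-29c-3p: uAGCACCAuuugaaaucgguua
miR-29a-5p: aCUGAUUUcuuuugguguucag
miR-29b-5p: cUGGUUUCacaugguggcuuag
miR-29c-5p: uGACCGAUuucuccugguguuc
No other counted miRNA with a RefSeq sequence carried the seed of the 3p products, and each 5p product had a seed of its own. Of the 673 known miRNAs counted, 606 had a sequence for this search. With positions counted from the 5′ end of miR-29a-3p, miR-29c-3p differed from it only by C10U. miR-29b-3p differed from miR-29a-3p by C10U, G18A, U21G and A22U and was 23 rather than 22 nt long. miR-29a-5p and miR-29c-5p start at different places. Offset by 2 bases, 17 of 20 bases were the same.

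The 4 genes lie in 2 pairs. Mir29a (chr4:60617955-60618042) and Mir29b1 (chr4:60618334-60618414) lie on the minus strand of chromosome 4 of GRCr8, 291 bases apart. Mir29b2 (chr13:109098831-109098911) and Mir29c (chr13:109099359-109099446) lie on the plus strand of chromosome 13, 447 bases apart. Both overlap the lncRNA gene LOC102550527, whose strand was not compared. Mir29b1 and Mir29b2 give the same miR-29b-3p, so its reads cannot be assigned to either pair of genes. The 5p row named miR-29b-5p has the sequence of the Mir29b2 product. miR-29b-1-5p, the 5p product of Mir29b1, was not analysed here.

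Levels are given as CPM, with the sum of mature miRNA reads of each sample as the denominator. The sums were 20023200 to 23426742 reads. A count of 0 allows up to 3 reads, or 0.128 to 0.150 CPM, and no member was at 0 in any sample. The family took 0.273 to 0.311% of the mature reads in the controls and 0.289 to 0.401% after 4-NP. In the 6 samples miR-21-5p took 62.0 to 63.9% of the mature reads. Reads were not collapsed to molecules, so intervals from counts cover counting error only.

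miR-29a-3p was the dominant member. Its level was 2028, 2488 and 2157 CPM in control samples 1, 2 and 3 and 2801, 2560 and 2127 CPM in 4-NP samples 1, 2 and 3. It ranked between 25 and 30 among the 734 mature miRNAs of a sample. The groups overlapped, since 4-NP sample 3 lay below control samples 2 and 3.

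miR-29b-3p had 637, 552 and 573 CPM in control samples against 1113, 579 and 687 CPM in treated ones. Treated sample 1 stood far above the rest, and treated sample 2 lay inside the range of the controls. The level of miR-29c-3p was 31.5, 35.1 and 33.6 CPM in control samples against 60.0, 36.2 and 40.2 CPM in treated ones. This was the only member whose groups did not overlap, by a margin of 35.1 to 36.2 CPM. With TMM-scaled CPM the margin was 35.4 to 35.5. Of the 549 miRNAs tested, 19.9% lay entirely higher after 4-NP, and 42.4% did not overlap in either direction.

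The 5p products, usually the passenger strands, were far lower. miR-29a-5p had 24.1, 26.7 and 21.9 CPM in control samples against 29.2, 22.2 and 31.0 CPM in treated ones. miR-29c-5p had 6.74, 7.19 and 4.76 CPM against 7.27, 9.09 and 6.44 CPM. Both overlapped between the groups.

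miR-29b-5p was near the limit of detection, with read counts of 7, 10 and 21 in controls against 8, 17 and 17 under 4-NP. The exact Poisson interval (95%) was 2.81 to 14.4 reads for the lowest of these samples and 13.0 to 32.1 reads for the highest. Summed over samples, it had 38 reads in the controls and 42 after 4-NP, with intervals of 26.9 to 52.2 and 30.3 to 56.8 reads.

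**Figure D1:**
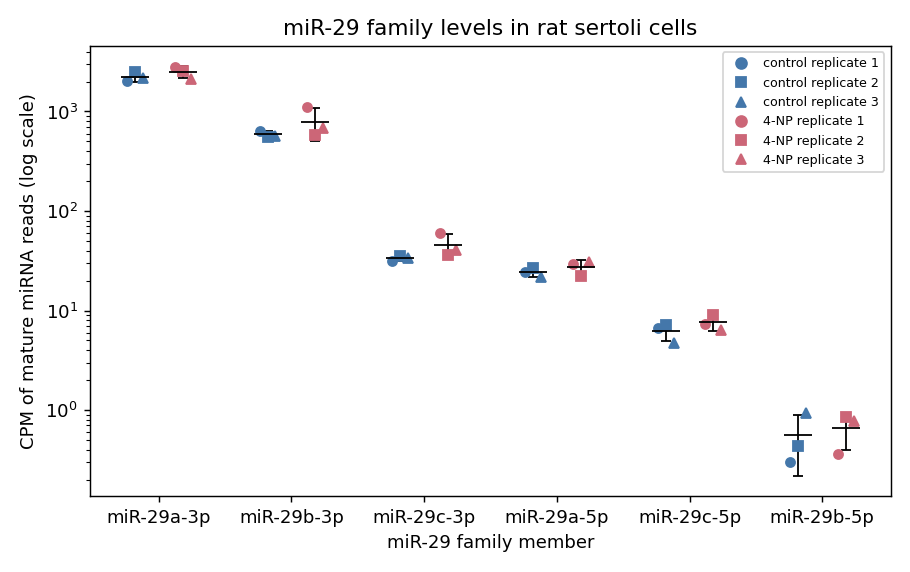
Level of each miR-29 family member in the 6 samples, in CPM of mature miRNA reads on a log axis, with points for single samples and black bars for the mean and SD of 3 samples. The members run from about 2360 CPM for miR-29a-3p down to 0.610 CPM for miR-29b-5p (means of 6 samples), while the 2 groups lie close together within each member.

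The order of the levels was the same in 6 of 6 samples, namely miR-29a-3p, miR-29b-3p, miR-29c-3p, miR-29a-5p, miR-29c-5p and miR-29b-5p. miR-29a-3p was 2.52 to 4.50 times miR-29b-3p, and miR-29b-3p was 15.7 to 20.2 times miR-29c-3p. The closest neighbours were miR-29c-3p and miR-29a-5p, with ratios of 1.30 to 2.05 in a sample. Their ranges over all samples did not overlap but almost met, at 31.5 and 31.0 CPM. The ranges of the other neighbours lay further apart. These are levels of reads of 22 or 23 nt, so no correction for length was made.

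Of the 3p reads of the family, miR-29a-3p held 78.1 ± 2.84% in the controls and 75.2 ± 5.10% after 4-NP (SD, n = 3 each). miR-29b-3p held 20.8 ± 2.83% and 23.4 ± 4.92%, and miR-29c-3p held 1.17 ± 0.0367% and 1.35 ± 0.191%. miR-29a-3p and miR-29c-3p differ by a base, yet they were 46.7 to 70.9 times apart. Whether counting allowed mismatches or shared reads between similar miRNAs is not given in the sources used here. The part of misassigned reads in the low miR-29c-3p row, and so in its level, ratios and correlations, was not tested. Their 5p products were only 2.44 to 4.81 times apart, in the same direction.

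The arms were used very unevenly across the family. miR-29a had 68.7 to 115 reads of the 3p product for each read of the 5p product. miR-29c had 3.98 to 8.25. For miR-29b, the 3p reads of both genes against the 5p reads of Mir29b2 gave 608 to 3078, a range set by the few 5p reads. Among the 146 miRNAs with both arms counted (at least 10 CPM for the higher arm and at least 1 read of each arm in each sample), the median of the ratio between the higher and the lower arm was 33.5, and 51 had the 3p arm higher. In this set 66.4% were less uneven than miR-29a, 91.1% less than miR-29b and 19.2% less than miR-29c.

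**Figure D2:**
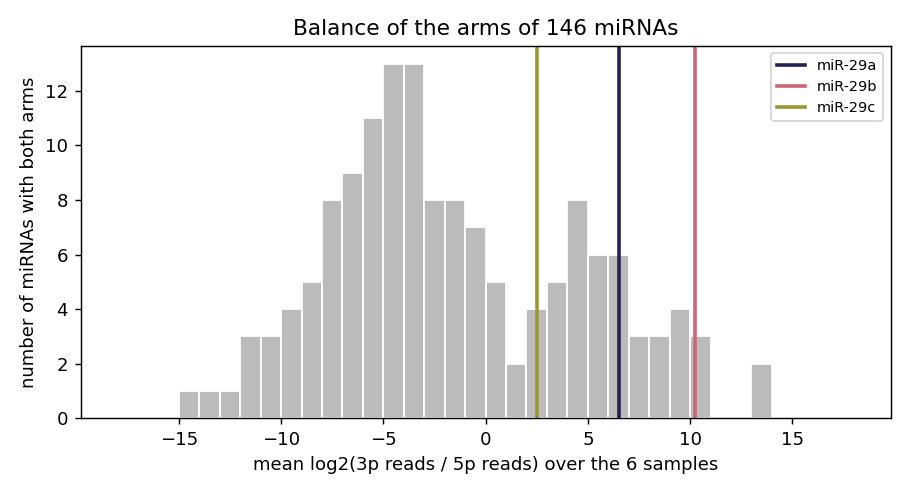
Number of miRNAs (y axis) by the mean over 6 samples of log2 of 3p reads over 5p reads (x axis, 0 for equal arms), for 146 miRNAs with both arms counted, with lines at the 3 names of the miR-29 family. All 3 lie on the side of the 3p arm, miR-29c at 2.50, miR-29a at 6.52 and miR-29b at 10.24.

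Each 3p member has an antisense miRNA in the annotation, counted in a row of its own. These 3 sequences are shown because each is the exact reverse complement of part of a member. Capitals mark the bases opposite the seed.
miR-3556a: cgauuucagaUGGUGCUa
miR-3587: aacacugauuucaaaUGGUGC
miR-3556b: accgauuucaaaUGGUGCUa
miR-3556a (chr4:60617972-60617989, plus strand) is complementary to bases 1 to 18 of miR-29a-3p. miR-3587 (chr4:60618342-60618362, plus strand) is complementary to bases 3 to 23 of miR-29b-3p, and miR-3556b (chr13:109099412-109099431, minus strand) to bases 1 to 20 of miR-29c-3p. The study calls its RNA sequencing strand-specific, but whether strand was used in counting the small RNA reads is not given in the sources used here, so reads of a member and of its antisense partner cannot be told apart with certainty.

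The antisense row of miR-29c was the larger of the pair. The reads of miR-3556b numbered 1458, 872 and 1463 in control samples against 2644, 910 and 1199 in treated ones. miR-29c-3p had 738, 811 and 748 reads against 1328, 725 and 881. The antisense row thus held 108 to 199% as many reads as the member in a sample. miR-3556b did not pass the test between groups (0.35 on the log2 scale, SE 0.42, adjusted p = 0.600 in edgeR).

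The reads of miR-3587 numbered 151, 115 and 124 in control samples against 247, 103 and 142 in treated ones. It stayed at 0.889 to 1.01% of miR-29b-3p in all 6 samples, with an SD of the log2 ratio of 0.08. Among 25 antisense pairs of the table with at least 10 reads of both partners in every sample, this was the lowest SD. The median was 0.57. By contrast, miR-3556a ran from 0.304 to 2.34% of miR-29a-3p (528, 1026 and 146 reads in control samples against 222, 1201 and 1068), with an SD of 1.33. The ratio to the member was thus steady for miR-3587 and varied widely for miR-3556a. miR-3587 is complementary to a stretch that Mir29b1 and Mir29b2 share, so its reads cannot be placed at either gene. When the antisense reads were added to the members, an alternative chosen after the values were seen, miR-29a-3p was 15.7 to 34.8 times miR-29c-3p.

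**Figure D3:**
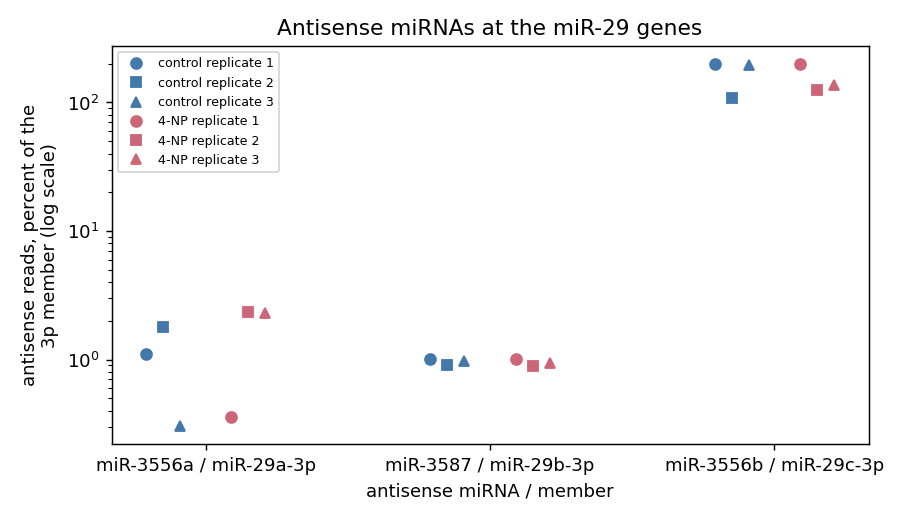
Reads of each antisense miRNA as a percent of the reads of the 3p member it is complementary to (y axis, log scale), with a point per sample for 3 control and 3 4-NP samples. miR-3587 stays within 0.889 to 1.01% of miR-29b-3p, miR-3556a spreads from 0.304 to 2.34% of miR-29a-3p, and miR-3556b lies above 100% of miR-29c-3p in all 6 samples.

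4-NP treatment was then compared with control to ask whether the family took part in the miRNA response. All 6 members passed the filter on low counts. None had an adjusted p under 0.05 in edgeR's quasi-likelihood test, whereas 20.2% of the 549 miRNAs tested did. None passed at an unadjusted p under 0.05 either, against 35.7% of the 549. With DESeq2 no member had an adjusted p under 0.05 and 1, miR-29c-3p, had an unadjusted p under 0.05. With limma no member passed at either level. Without treated sample 2, 3 members had an unadjusted p under 0.05 in edgeR, and with RLE factors or with no filter on low counts 1 member did, in each case with none at an adjusted p under 0.05. At a fold change over 2 or under 0.5 with an unadjusted p under 0.05, the thresholds of the study's methods, 15.7% of the 549 miRNAs and no member were called.

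miR-29a-3p averaged 2225 ± 238 CPM in control samples against 2496 ± 342 CPM in treated ones (SD of 3 samples each). The edgeR estimate was 0.15 on the log2 scale (SE 0.11, adjusted p = 0.364), and the 95% interval of the fold ran from 0.925 to 1.32. This was the narrowest interval of the family.

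miR-29b-3p averaged 587 ± 44.0 against 793 ± 282 CPM, an edgeR estimate of 0.40 on the log2 scale (SE 0.25, adjusted p = 0.287) with an interval of 0.872 to 1.99-fold. miR-29c-3p averaged 33.4 ± 1.81 against 45.5 ± 12.7 CPM, an edgeR estimate of 0.42 (SE 0.19, adjusted p = 0.173) with an interval of 0.972 to 1.84-fold. Both values depended on single treated samples. Without treated sample 1 the log2 fold change was 0.13 for miR-29b-3p and 0.22 for miR-29c-3p. Without treated sample 2 it was 0.67 for miR-29b-3p and 0.65 for miR-29c-3p, with adjusted p of 0.0969 and 0.0683 in edgeR.

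For the 5p products, the interval of the fold was 0.851 to 1.48 for miR-29a-5p, 0.872 to 1.67 for miR-29c-5p and 0.446 to 3.06 for miR-29b-5p. Their log2 fold changes were 0.17, 0.27 and 0.22. In the main fit the interval thus lay within 0.5 to 2-fold for 5 of the 6 members. The interval of miR-29b-5p includes changes of that size in both directions. For miR-29b-3p the upper limit of 1.99 was close to 2. Its log2 fold change was 0.40 in the main fit, and 0.43 with RLE factors or with the sum of mature counts alone. Intervals under these other scalings, and the share of all miRNAs tested with an interval within 0.5 to 2-fold, are not given here. A smaller change of the 5 members other than miR-29b-5p is not excluded by these intervals.

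The fitted log2 fold change was above 0 for 6 of 6 members, with a median of 0.25, while it was above 0 for 49% of all miRNAs tested, whose median was -0.02. The members share libraries, genes and scaling, and none of these values passed the test.

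**Figure D4:**
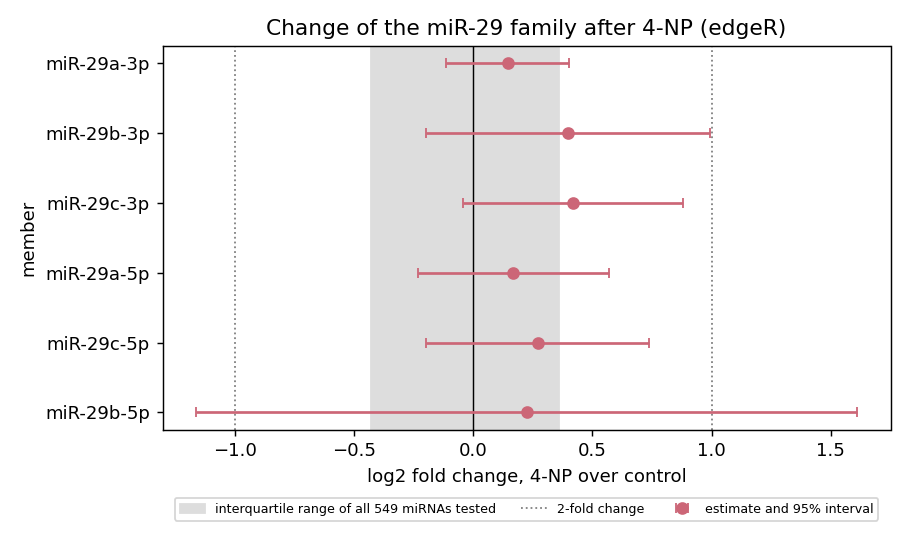
Log2 fold change of each miR-29 member, 4-NP over control (x axis), as the edgeR estimate with its 95% interval, from 3 samples per group. The grey band is the interquartile range of all 549 miRNAs tested, -0.43 to 0.36, and all 6 intervals cross 0.

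The spread between treated samples was much wider than between controls for miR-29b-3p and miR-29c-3p. The coefficient of variation was 7.49% in the controls and 35.6% after 4-NP for miR-29b-3p, and 5.42% and 28.0% for miR-29c-3p. For miR-29a-3p it was 10.7% and 13.7%, near the medians of the 290 tested miRNAs with at least 10 CPM (13.2% and 12.7%). Treated sample 1 was the highest of the 6 samples for all 3 of the 3p members. In that library the share of mature miRNAs among counted reads was the lowest (81.9%, against 83.6 to 85.2% in the others) and the share of intron reads the highest (1.75%, against 0.791 to 1.24%). The part of these shares in the levels was not tested.

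miR-29b-3p and miR-29c-3p had the highest correlation among the 3p members, but their order was opposite among the controls. In control samples 1, 2 and 3, miR-29b-3p had 637, 552 and 573 CPM and miR-29c-3p had 31.5, 35.1 and 33.6 CPM. Over the 6 samples, Pearson's r of log2(CPM + 1) was 0.93 between them, 0.71 between miR-29a-3p and miR-29c-3p and 0.50 between miR-29a-3p and miR-29b-3p. These values describe samples that share libraries and depth. Treated sample 1 had the highest value of each 3p member, and r without that sample is not given here.

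**Figure D5:**
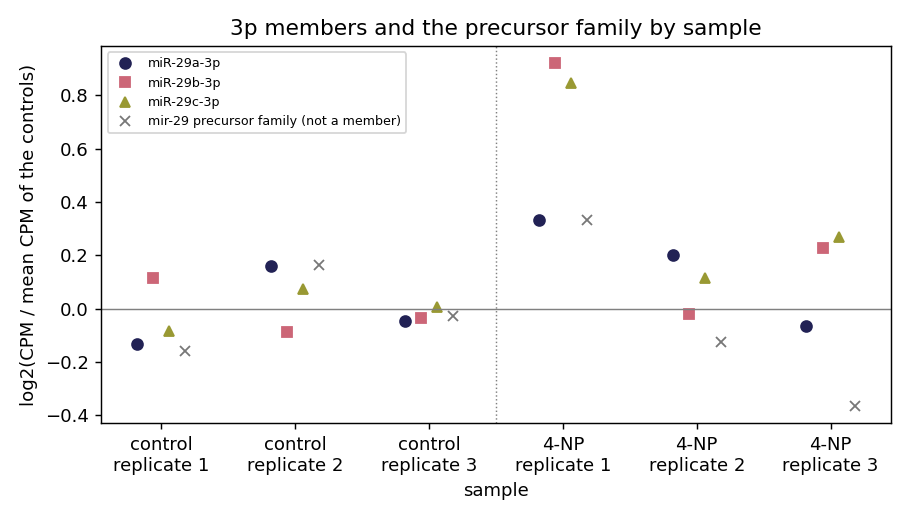
Log2 of the CPM over the mean CPM of the 3 controls (y axis) for the 3p members and the mir-29 precursor family in each of the 6 samples (x axis). The precursor family stands for short reads counted on it, not for whole precursors. In 4-NP sample 1, miR-29b-3p (0.92) and miR-29c-3p (0.85) lie far above 0 and miR-29a-3p lies at 0.33, as does the precursor family.

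Ratios within a sample, which do not depend on scaling, overlapped between the groups for all 6 pairs compared. With 3 samples against 3, the exact permutation test cannot go below p = 0.1, and the lowest p of the 6 ratios compared was 0.3 (two-sided, adjusted p = 1 for all 6). A shift therefore could not pass the threshold in this design. The lowest p was that of miR-29c-3p over miR-29a-3p, which was 0.0151 ± 0.000828 in the controls and 0.0182 ± 0.00370 after 4-NP. Its log2 difference of 0.25 was larger than the SD of the log2 ratio among controls (0.081) and smaller than that among treated samples (0.31). miR-29b-3p over miR-29a-3p was 0.267 ± 0.0460 and 0.315 ± 0.0858. miR-29b-3p over miR-29c-3p was 17.7 ± 2.30 and 17.2 ± 1.28 (SD of 3 samples throughout).

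The ratio of 3p to 5p reads was 91.9 ± 7.23 in the controls and 93.3 ± 23.5 after 4-NP for miR-29a, and 5.54 ± 1.32 and 6.16 ± 2.13 for miR-29c (SD, 3 samples each). For miR-29b it was 1338 ± 764 and 1548 ± 1329. All 3 ranges overlapped between the groups.

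Outside the mature rows, the table counted reads on the mir-29 precursor family, which are not assigned to a gene. The libraries were made from RNA of 18 to 30 nt, while the hairpins are 81 to 88 nt long. These short reads are therefore no measure of whole precursors. They numbered 4783, 5898 and 4980 in the controls and 6343, 4182 and 3870 after 4-NP. Scaled to mature reads, these were 204, 255 and 223 CPM against 287, 209 and 177 CPM. The groups overlapped, and treated samples 1 and 3 were the highest and the lowest of all.

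The miRNAs whose pattern over the 6 samples was most like that of miR-29a-3p were miR-296-5p (Pearson's r 0.992), miR-181b-5p (0.902), miR-181d-5p (0.895), miR-298-5p (0.895) and miR-3596a (0.893), out of 286 tested miRNAs with at least 10 CPM. None of the 5 had an adjusted p under 0.05 in edgeR. miR-3596a lies antisense to let-7a-2, so its reads are uncertain in the same way. Of the family itself, miR-29c-3p had the highest r with miR-29a-3p (0.71).

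Other miRNAs that share a described role with miR-29 are given for comparison. MYC is known to repress the miR-29 family together with let-7, miR-15 and miR-16, miR-22, miR-26, miR-30 and miR-34a. Of 31 tested products of 18 such names, 7 rose and none fell at an adjusted p under 0.05 in edgeR. Over all miRNAs tested, 7.47% rose and 12.8% fell. The median log2 fold change was 0.37 against -0.02 for all. Products with a locus number in the name were not matched in any of the lists. Those of the names on this list ran from -0.47 (let-7a-2-3p, adjusted p = 0.0528 in edgeR) to 0.63 (let-7f-1-3p, adjusted p = 0.300), and none passed. Reads of the let-7 products on this list are subject to the same doubt about antisense rows as miR-3596a. The 7 were both arms of miR-22, miR-34a and miR-146a, and miR-30d-5p. miR-34a-5p rose from 7126 ± 286 to 11336 ± 539 CPM, an edgeR estimate of 0.65 on the log2 scale (SE 0.08, adjusted p = 0.00232).

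Among 17 tested products of 9 miRNA names linked to DNA methyltransferases or listed with them, 2 rose and 1 fell, where 7.47% of all miRNAs tested rose and 12.8% fell. The median log2 fold change was 0.26. Both arms of miR-148a, which targets Dnmt1 and Dnmt3b, rose. miR-148a-3p went from 546 ± 49.2 to 985 ± 203 CPM, an edgeR estimate of 0.83 on the log2 scale (SE 0.15, adjusted p = 0.00938). The product that fell was miR-143-3p, from 123969 ± 8633 to 89443 ± 4588 CPM, an edgeR estimate of -0.50 on the log2 scale (SE 0.10, adjusted p = 0.0177).

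Of 24 tested products of 15 names linked to fibrosis and the extracellular matrix, 1 rose and 6 fell, against the same shares of 7.47% and 12.8% over all miRNAs tested. The median log2 fold change was -0.28. miR-192-5p rose. The falls included miR-199a-5p, from 3240 ± 353 to 1803 ± 168 CPM, an edgeR estimate of -0.86 on the log2 scale (SE 0.10, adjusted p = 0.00154), and both arms of miR-214, made from the same primary transcript. The other falls were miR-143-3p, miR-145-3p and miR-200a-3p. The more abundant arm miR-199a-3p did not pass, at 11801 ± 304 against 11386 ± 1251 CPM (log2 fold change -0.08, adjusted p = 0.635 in edgeR). Neither did miR-145-5p (-0.33, adjusted p = 0.159) or miR-143-5p (-0.66, adjusted p = 0.0749).

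Markers of cell types were summed for each sample. The gonadal miRNAs miR-202 and miR-140 (4 of 4 rows above 0) ran from 1382 to 1897 CPM in control samples against 1213 to 1404 CPM in treated ones, while miR-143 and miR-145, known from smooth muscle and peritubular myoid cells, had 120596 to 136273 and 88389 to 96697 CPM. Endothelial miR-126a and miR-126b had 6325 to 7615 and 3234 to 3805 CPM. Entirely lower after 4-NP were 2 of the 3 endothelial rows, 2 of the 4 rows of miR-143 and miR-145 and 1 of the 4 gonadal rows. Of the 549 miRNAs tested, 42.4% did not overlap in either direction. Both arms of miR-126a passed in edgeR, miR-126a-3p at -1.02 on the log2 scale (adjusted p = 0.00419) and miR-126a-5p at -1.16 (adjusted p = 0.00628). Erythroid miR-451, miR-144 and miR-486 had 11.0 to 40.7 and 59.3 to 631 CPM, with 1 of their 4 rows entirely higher after 4-NP. In edgeR miR-451-5p passed (adjusted p = 0.0363) and miR-486 did not (adjusted p = 0.113). The summed germ cell miRNAs of the miR-34b, miR-34c and miR-449 group overlapped (149.7 to 167 against 162 to 197 CPM). Of their 7 rows, 4 lay entirely higher after 4-NP, as did 19.9% of the 549 miRNAs tested. Both arms of miR-34b and miR-34c rose, by 0.99 (miR-34b-3p) to 1.36 (miR-34c-3p) on the log2 scale, with adjusted p of 0.00534 and 0.000563 in edgeR, while miR-449a-5p had -0.25 (adjusted p = 0.247). The sums of the myeloid and lymphoid ones (18.2 to 22.4 against 17.3 to 36.9 CPM), the striated muscle ones (14.5 to 20.0 against 13.4 to 15.4 CPM) and the liver miRNA miR-122-5p (0.0427 to 0.538 against 0.271 to 21.7 CPM) overlapped between the groups. No marker row was at 0 in all samples. In bulk samples, fewer cells of a type and less RNA per cell cannot be told apart, and the part of such cells in the levels of miR-29 was not tested.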

How the data were processed

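Libraries were made from gel-purified RNA of 18 to 30 nt, with molecular identifiers in the 3′ adapter. The authors deposited 1 table of raw read counts per small RNA in 6 samples, without normalization. A further deposited column per sample, named for the identifiers and of another unit, holds the value 1 for every member in every sample, so it is no number of molecules and was not used. The submitters' processing notes name HISAT2 and DESeq2, with no role. The build and the miRNA database behind the counts are not given in the sources used here.

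Counts of the 734 mature rows were tested with edgeR 4.0.16 in R 4.3.3 (quasi-likelihood F test, TMM, filterByExpr, no replicate block, common dispersion 0.118), which left 549 rows, with Benjamini-Hochberg adjustment over all of them. Standard errors (SE) and 95% intervals were derived from the estimate and its F value. Levels are CPM of the sum of mature counts. Ratios of counts (0.5 added on the log2 scale) were compared by a two-sided exact permutation test. Replicate pairs of a group differed by chi-square values of 132 to 806 per degree of freedom, so all 6 samples were kept. The procedure was tested on simulated data. Alternatives were DESeq2 1.42.0, limma 3.58.1, other scalings and filters, a replicate block and omission of each sample.

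All members are described. Likeness to miR-29a-3p used Pearson's r of log2(CPM + 1), and the 5 highest are named. Members, lists and tests were chosen with earlier results of these data known. The antisense miRNAs were added after the values were seen. Coordinates are those of the RefSeq sequences in GRCr8.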

Additional observations from a re-analysis of the deposited data

How the results depend on the processing

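No member had an adjusted p under 0.05 in the main fit or under any of the 17 alternatives. The lowest was 0.0683, for miR-29c-3p without 4-NP replicate 2. The direction changed only for miR-29b-5p, from 0.22 to -0.061 without control replicate 1, and its log2 fold change ran from -0.061 to 0.85 over the fits that each left out 1 sample. At least 10 counts in every sample left out miR-29b-5p. In edgeR 41 miRNAs were higher and 70 lower in the whole table, against 26 and 56 with the replicate block. With the study's thresholds 32 and 54 were called, against 18 and 37 with limma on log2(CPM + 1).

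Same-numbered samples did not deviate together (r of -0.22, -0.27 and -0.09 across miRNAs), and no sample correlated best with its own number. With the replicate block the log2 fold change was 0.14 for miR-29a-3p, 0.36 for miR-29b-3p and 0.39 for miR-29c-3p, and no call changed.

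For some ratios, the log2 difference between the groups changed sign with the omission of a sample. Over these omissions the log2 difference ran from -0.11 to 0.067 for miR-29b-3p over miR-29c-3p (above 0 without control replicate 1 or 4-NP replicate 2), from -0.18 to 0.20 for the arms of miR-29a (above 0 without control replicate 2 or 3 or 4-NP replicate 3), from -0.58 to 0.48 for those of miR-29b (below 0 without control replicate 3 or 4-NP replicate 1) and from -0.12 to 0.40 for those of miR-29c (below 0 without 4-NP replicate 1). With antisense reads added, the first was 0.032 and that of miR-29a 0.0013. The cause was not tested. None was past a threshold, and with 3 samples per group none could be.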

Other observations

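The antisense rows of other miRNAs, examined after the values were seen, were less steady than that of miR-29b. Of 41 pairs of counted miRNAs that overlap on opposite strands in GRCr8 by at least 10 bases, 25 had at least 10 reads of both partners in every sample. The SD of the log2 ratio over the 6 samples ran from 0.08 for miR-3587 against miR-29b-3p to 4.76 for miR-3596a against let-7a-5p. For miR-3596a and let-7a-5p the antisense row held between 1.51 and 3268% of the reads of the other, and their levels had a Pearson's r of -0.95 over the 6 samples. For miR-3570 and miR-181a-1-3p the range was 1.57 to 3646%. miR-29c-3p and miR-3556b (SD 0.39) lay below the median of 0.57 and miR-29a-3p and miR-3556a (SD 1.33) above it. The cause of these ranges was not tested.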
